A study of Mus musculus with 8 samples.

Results

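Transcript levels of 10 genes of the acrosome were followed through the first wave of spermatogenesis in the mouse testis. The genes are Acr, Acrbp, Acrv1, Zpbp, Zpbp2, Zp3r, Spaca1, Spam1, Gopc and Hook1, taken by symbol from an expression table of 23983 genes, and all 10 are in it. RNA-seq was done on whole testis of C57BL/6J mice at day 12 (d12), day 16 (d16) and day 24 (d24) after birth and of adults, with 1 library per stage, no treatment and no other genotype. The study used these stages to find genes that switch on at a given step of spermatogenesis and whose promoters could drive transgenes in spermatids. Each library came from total RNA of a piece of testis, and how many animals it stands for is not given in the sources used here.

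Values are FPKM, fragments scaled by transcript length and library depth. No correction for effective length was made, so comparisons between genes of different length are approximate. The intervals given below do not cover this. With 1 library per stage there is no replicate and no test. Error is therefore given as an exact 95% interval on the number of sequenced fragments behind a value, recovered from the deposited FPKM. These intervals cover counting error only, not the spread between animals, and fragments amplified by PCR are not independent molecules. Where no fragment was found, the limit is the FPKM that 3 fragments would give.

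The acrosome is a secretory vesicle over the sperm nucleus that is built from the Golgi apparatus in round spermatids and then spreads over the nucleus. Its matrix holds proteases, hyaluronidase and zona-binding proteins that are released or exposed when sperm meet the egg. Spermatocytes already make some of these proteins, and others are made only by spermatids, the cells that follow the meiotic divisions. In the first wave, early meiotic cells are found by d12, pachytene spermatocytes by d16 and round spermatids by d24, while the adult testis holds all stages including elongating spermatids.

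The promoters are shown first because the genes differed both in their promoter sequence and in the stage at which their transcripts appeared. The RefSeq promoter table of GRCm38.p6, the build the reads were mapped to, holds 9 of the 10 genes and not Acr. The lines below give the 150 bases before the start of 6 of them, from 5′ to 3′ on the strand of the gene, with each CG dinucleotide in capitals. Acrbp (chr6:125049777-125049926, plus strand) and Zpbp2 (chr11:98550947-98551096, plus strand) had transcripts at d16. Spaca1 (chr4:34050066-34050215, minus strand) had few transcripts at d16. Acrv1 (chr9:36693070-36693219, plus strand), Spam1 (chr6:24791038-24791187, plus strand) and Zp3r (chr1:130629607-130629756, minus strand) had at most 2 fragments at d16.
Acrbp: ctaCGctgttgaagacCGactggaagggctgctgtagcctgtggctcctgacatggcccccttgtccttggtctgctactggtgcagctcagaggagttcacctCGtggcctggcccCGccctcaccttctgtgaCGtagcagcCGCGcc
Zpbp2: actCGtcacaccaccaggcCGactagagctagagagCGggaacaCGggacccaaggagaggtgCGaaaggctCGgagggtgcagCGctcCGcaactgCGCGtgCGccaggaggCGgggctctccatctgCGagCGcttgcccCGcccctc
Spaca1: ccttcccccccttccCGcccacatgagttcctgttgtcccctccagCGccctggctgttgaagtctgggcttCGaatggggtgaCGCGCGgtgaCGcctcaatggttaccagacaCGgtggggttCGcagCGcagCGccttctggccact
Acrv1: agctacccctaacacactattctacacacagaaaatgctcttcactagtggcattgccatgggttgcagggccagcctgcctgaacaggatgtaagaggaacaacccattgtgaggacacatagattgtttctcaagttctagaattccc
Spam1: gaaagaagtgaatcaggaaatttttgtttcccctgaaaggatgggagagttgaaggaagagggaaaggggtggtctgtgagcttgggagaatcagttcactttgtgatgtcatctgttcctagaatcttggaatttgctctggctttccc
Zp3r: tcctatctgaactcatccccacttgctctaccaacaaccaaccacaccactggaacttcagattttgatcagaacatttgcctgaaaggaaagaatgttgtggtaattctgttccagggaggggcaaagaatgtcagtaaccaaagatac

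In the 250 bases before the start, Acrv1, Spam1 and Zp3r held 0 CG dinucleotides each. The promoters of Zpbp, Gopc and Hook1 are not shown above. Zpbp, with 8.78 FPKM at d16, held 4, so transcripts at d16 did not go only with high counts. Acrbp held 11, Spaca1 13, Zpbp2 19, Gopc 22 and Hook1 32. Over all 27025 promoters of the reference table the median was 6, with quartiles of 2 and 16, and 8.26% held 0. The CG count was chosen after the sequences had been seen, so it is a description of 9 promoters. For 1083 of the 1510 genes that first reached 2 FPKM at d24 a promoter was found, under 80%, so a comparison over all genes of that kind would be void and is not given.

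**Figure D1:**
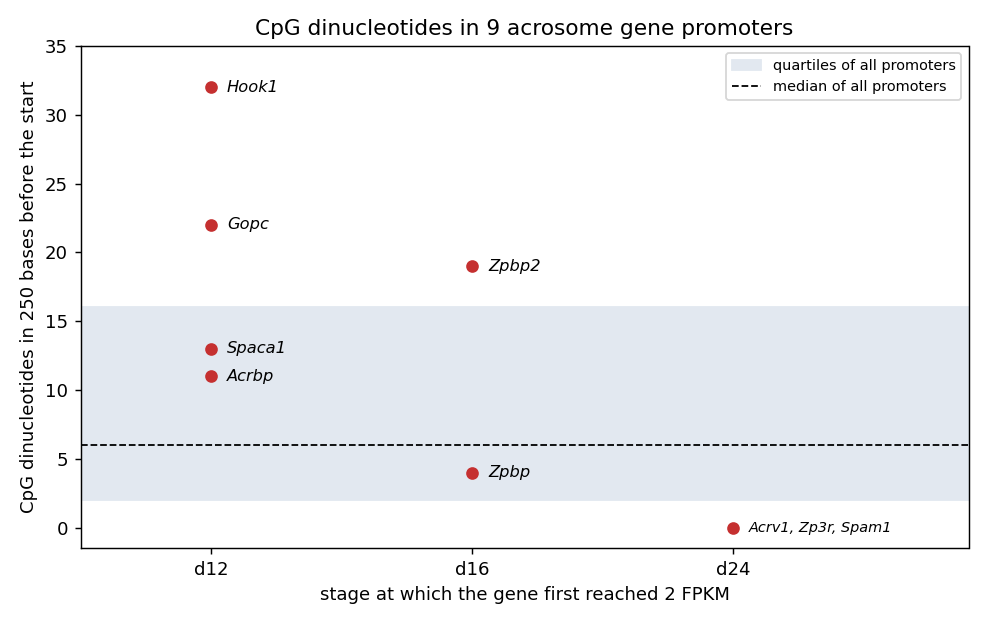
Number of CG dinucleotides in the 250 bases before the start (vertical axis) of the 9 acrosome genes with a promoter in the table, placed by the stage at which each first reached 2 FPKM. The band marks the quartiles and the dashed line the median of all 27025 promoters. Acrv1, Zp3r and Spam1 share the value 0, and Hook1 stands highest with 32.

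Short motifs were searched on both strands of the whole 300-base windows, which run 50 bases past the start. TGACGT, the longer part of a cAMP response element, was found in Acrbp, where it begins 18 bases before the start, and in 7.51% of all 32851 windows. The full element TGACGTCA, which contains it, was in none of the 9 windows and in 1.79% of all windows. CAGTT, the core of MYB sites, was in 4 of the 9 windows (Acrv1, Zpbp2, Zp3r and Spam1) and in 44.8% of all. TATAAA was in none of the 9 and in 13.6% of all, and CCAAT was in Zpbp, Gopc and Hook1 and in 37.4% of all. A match says only that the letters are present.

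The depth of the libraries and the makeup of the tissue changed with age. From d12 to the adult, fragments on genes numbered 8237320, 8710610, 21833500 and 11130800, so that 3 fragments on a transcript of 1 kb stand for 0.240, 0.240, 0.137 and 0.337 FPKM. Summed FPKM of lists of 6 marker genes each were set beside the stage labels. Pachytene markers stood at 62.7, 987.3, 4214 and 4884 from d12 to the adult. Round spermatid markers stood at 0.452, 1.38, 281.9 and 874.1, with 4 of the 6 at 0 at d12 and 3 at d16, and elongating spermatid markers at 13.1, 4.42, 2424 and 26742. Sertoli markers went from 180.6 at d12 to 63.0 in the adult, where Amh was listed at 0, and spermatogonial markers from 289.0 to 62.1. The early meiotic sum was highest at d16, with 1416, most of it from Sycp1 (536.0) and Sycp3 (795.3). Of this list Dmc1 and Prdm9 were highest at d12 and Spo11 in the adult, while Sycp1, Sycp3 and Meiob were highest at d16. Leydig markers were at 131.6 at d12 and 580.7 in the adult. The elongating markers were thus lower at d16 than at d12, though both values are small beside d24. Pachytene and round spermatid markers, like the acrosome genes, had higher sums at each later stage, while Sertoli and spermatogonial sums were lower at each. The part of these cell types in each result was not tested. In whole testis, more cells of a type and more RNA per cell cannot be told apart.

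Together the 10 acrosome genes took 0.0174%, 0.0372%, 0.219% and 0.266% of all FPKM from d12 to the adult. The step from d16 to d24 was the one at which most of them changed. From d12 to d16, 4 of the 10 rose at least 2-fold and 0 fell, against 12.6% rising and 3.67% falling among the 13901 genes whose mean reached 1 FPKM. From d16 to d24, 9 rose and 0 fell, against 27.5% and 8.45% of all genes. From d24 to the adult, 5 rose and 0 fell, against 11.4% and 2.2%. The fold was taken on FPKM + 0.1. All 10 genes pass the filter on the mean, Acrv1, Spam1 and Zp3r only through their values at d24 and in the adult. The count of 5 for the last step depends on the scaling between libraries, since it was 1 with all libraries brought to an equal FPKM total and 2 with each divided by its upper quartile. The count of 9 from d16 to d24 was 8 and 9 under these scalings. Relative to the summed pachytene markers, 7 rose and 1 (Gopc) fell at that step, against 10.2% and 73.5% of all genes.

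**Figure D2:**
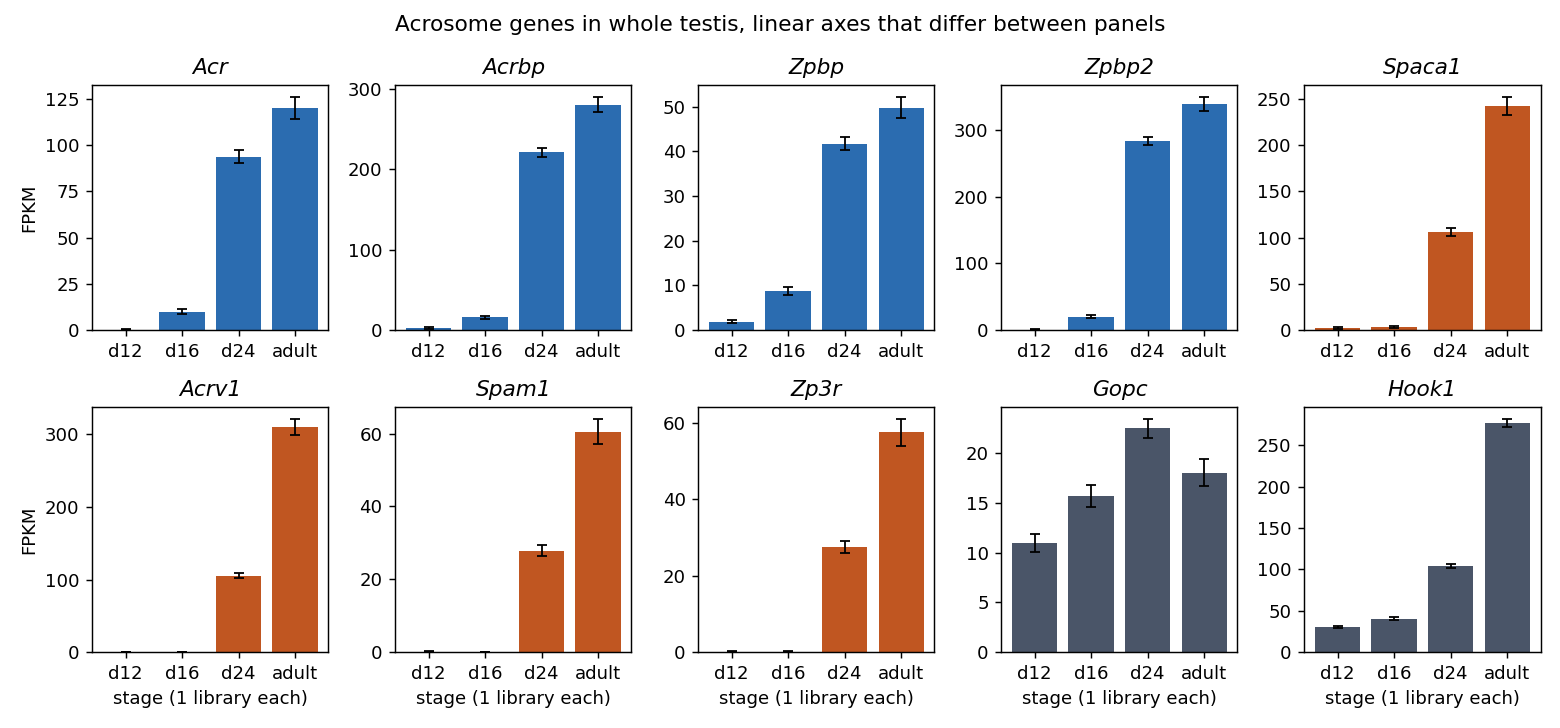
FPKM of the 10 acrosome genes by stage, 1 panel per gene on linear axes that start at 0 and differ between panels. Bars are the single library of each stage and error bars are 95% counting intervals. At d16 the blue genes had 5.75% to 17.6% of their adult values and the orange genes at most 1.46%. From d24 to the adult the blue genes changed by 1.19 to 1.28 times and the orange genes by 2.099 to 2.94 times. Grey marks Gopc and Hook1, of which Gopc was lower in the adult (18.0) than at d24 (22.5).

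Gopc and Hook1 act in vesicle traffic and in shaping the head rather than as cargo of the acrosome. Gopc encodes a Golgi-associated PDZ protein whose loss in mice leaves sperm without a proper acrosome. It lies at chr10:52337024-52382124 on the minus strand and spans the pseudogene Gm6627 on the same strand. From d12 to the adult it was at 10.9, 15.6, 22.5 and 18.0 FPKM. The highest value was that of d24, 2.06 times the d12 value. The ratio was 1.43 (95% interval 1.29 to 1.60) from d12 to d16, 1.44 (1.33 to 1.56) from d16 to d24 and 0.801 (0.734 to 0.873) from d24 to the adult. With the same FPKM sum per library the step from d16 to d24 turned to a log2 change of -0.10. Relative to the summed pachytene markers the change was -1.56, a fall past 2-fold, as for 73.5% of all genes. The direction of this step thus depends on the scaling.

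Hook1 encodes a microtubule adaptor that is found on the manchette, the microtubule skirt of elongating spermatids, and its loss gives abnormally shaped sperm heads. It lies at chr4:95967379-96024277 on the plus strand, and its first bases overlap the lncRNA 9530080O11Rik on the opposite strand. Its values were 30.7, 40.5, 104.3 and 276.9 FPKM from d12 to the adult. From d12 to d16 its ratio was 1.32 (1.24 to 1.41). It was the highest of the 10 genes at both stages and rose by a factor of 2.57 (2.46 to 2.70) to d24 and of 2.66 (2.58 to 2.73) from d24 to the adult. With the same FPKM sum per library the latter was a log2 change of 0.93. Relative to the summed pachytene markers the step from d16 to d24 was instead a fall, with a log2 change of -0.73. Within a library, where scaling does not enter, the ratio of Hook1 to Gopc was 2.81, 2.59, 4.64 and 15.4 (14.3 to 16.7) in the order of the stages. The 2 genes thus kept nearly the same ratio at d12 and d16 and moved apart afterwards.

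Acr encodes acrosin, the main serine protease of the acrosomal matrix, and lies at chr15:89568326-89574585 on the plus strand. From d12 to the adult it was at 0.348 (6 fragments), 10.0, 93.7 and 119.8 FPKM. On the scale of ratios, nearly all of the rise fell in the 2 steps before d24. It was 28.7 times (12.9 to 79.3) from d12 to d16 and 9.37 times (8.05 to 11.0) from d16 to d24. From d24 to the adult the ratio was 1.28 (1.1996 to 1.36), and 0.917 with the same FPKM sum per library, so that this last step has no settled direction.

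Acrbp encodes the protein that binds proacrosin, the precursor of acrosin, and regulates its release and activation. It lies at chr6:125049927-125063265 on the plus strand, and its promoter is shown above. It stood at 2.73, 16.1, 221.4 and 280.7 FPKM in the 4 libraries by age. At d12 it stood clear of Acr, with 43 fragments, and it changed by 5.91 times (4.27 to 8.37), 13.7 times (12.1 to 15.6) and 1.27 times (1.21 to 1.32) at the 3 steps. The last of these was 0.909 with the same FPKM sum per library. Within a library the ratio of Acrbp to Acr was 7.84 (3.32 to 22.6), 1.61 (1.33 to 1.97), 2.36 (2.26 to 2.47) and 2.34 (2.202 to 2.49) in the order of the stages. The protease and its partner thus stood in nearly the same ratio at d24 and in the adult, while Acrbp was relatively higher at d12. For Acr, Acrbp and Zpbp2, whose curated transcripts differ in length by more than 1.1 times, fragments and intervals were taken with the shortest transcript, which gives the fewest fragments.

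Zpbp and Zpbp2 encode the paralogous zona pellucida binding proteins of the acrosomal matrix. Zpbp lies at chr11:11280040-11462419 on the minus strand and Zpbp2 on the same chromosome at chr11:98551097-98558665 on the plus strand. Zpbp was at 1.89, 8.78, 41.7 and 49.8 FPKM from d12 to the adult. Zpbp2 was at 0.684, 19.9, 283.5 and 339.1 FPKM and was the highest of the 10 genes at d24 and in the adult. The order of the 2 genes was therefore turned between d12 and d16. By age, the ratio of Zpbp2 to Zpbp was 0.362 (0.172 to 0.671), 2.27 (1.95 to 2.62), 6.79 (6.52 to 7.07) and 6.81 (6.43 to 7.22). From d24 to the adult Zpbp changed by 1.19 times (1.12 to 1.26) and Zpbp2 by 1.196 times (1.15 to 1.24), and both ratios were under 1 (0.855 and 0.858) with the same FPKM sum per library. The pair thus held its ratio after d24, as Acr and Acrbp did.

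Zp3r encodes a further zona-binding protein of the acrosomal matrix, also known as sp56, and lies at chr1:130576706-130629606 on the minus strand. It had 0.0393 FPKM (1 fragment) in the d12 library and 0.0787 FPKM (2 fragments) in the d16 library, against 27.4 at d24 and 57.4 in the adult. From d16 to d24 the ratio was 347.9, with a counting interval of 96.1 to 2877 that is wide because of the 2 fragments at d16. From d24 to the adult it rose by a factor of 2.099 (1.93 to 2.28), and by 1.51 with the same FPKM sum per library.

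Acrv1 encodes SP-10, a protein of the acrosomal matrix and membrane, and lies at chr9:36693220-36698843 on the plus strand. It was at 0.0729 FPKM at d12, which is 1 fragment, and at 0 at d16, where 3 fragments would give 0.218 FPKM. At d24 it was at 105.7 FPKM and in the adult at 310.6. The value at d24 was at least 485-fold higher than this limit of 3 fragments, and the lower 95% counting bound of the ratio was 394.1. Acrv1 then rose by a factor of 2.94 (2.79 to 3.10) from d24 to the adult, the largest ratio of the 10 genes at this step, and by 2.11 with the same FPKM sum per library. It was the only one of the 10 that passed 2-fold at this step under each scaling tried. Its promoter, shown above, holds no CG dinucleotide in 250 bases.

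Spam1 encodes PH-20, the hyaluronidase of the sperm surface and inner acrosomal membrane, and lies at chr6:24791188-24801048 on the plus strand. It had 0.0379 FPKM (1 fragment) in the d12 library and 0 (limit 0.114) in the d16 library, against 27.9 at d24 and 60.5 in the adult. At d24 it was at least 245-fold higher than this limit of 3 fragments, and the lower 95% counting bound of the ratio was 199.2. From d24 to the adult it rose by a factor of 2.17 (2.00 to 2.35), and by 1.56 with the same FPKM sum per library. Spam1 and Zp3r could not be separated at d24, where their ratio was 1.02 (0.942 to 1.103), or in the adult, where it was 1.05 (0.967 to 1.15).

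Spaca1 encodes a protein of the acrosomal membrane that is needed for the acrosome to take its shape, and lies at chr4:34024872-34050067 on the minus strand. By age it was at 2.03 (29 fragments), 3.53 (50 fragments), 106.3 and 242.7 FPKM. Unlike Acrv1, Spam1 and Zp3r it was thus measured at both early stages, and its ratio from d12 to d16 was 1.74 (1.07 to 2.83). It rose by a factor of 30.1 (22.6 to 40.4) from d16 to d24 and of 2.28 (2.16 to 2.41) from d24 to the adult, the latter being 1.64 with the same FPKM sum per library.

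**Figure D3:**
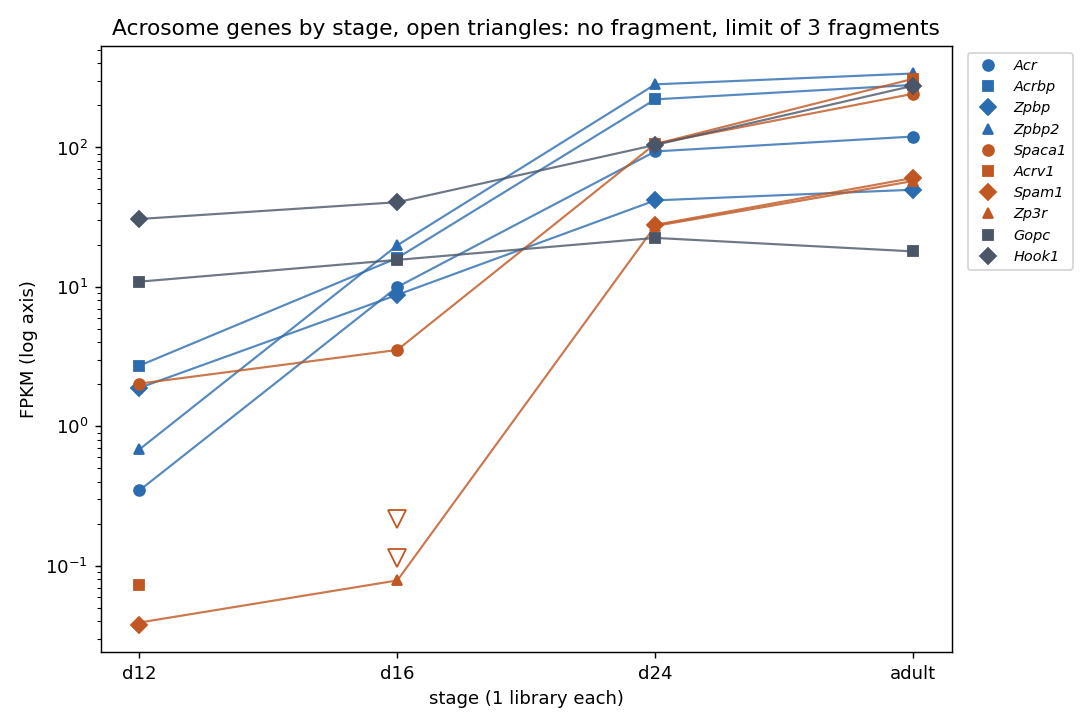
FPKM of the 10 acrosome genes by stage on a log axis, with a line through each gene's single libraries. Open triangles mark the limit of 3 fragments for Acrv1 (0.218) and Spam1 (0.114) at d16, where no fragment was found, and no line is drawn to them. Acr, Acrbp, Zpbp and Zpbp2 in blue lie between 8.78 and 19.9 at d16, and the orange genes lie below them at that stage.

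By the threshold of 2 FPKM that the methods of the study use, the 10 genes fell into 3 classes. The study also set an upper limit on FPKM and a filter on expression in other tissues, and it defined no d12 group. Neither was applied here, so these classes are not the gene groups of the study. Acrbp, Spaca1, Gopc and Hook1 had at least 2 FPKM at d12. Acr, Zpbp and Zpbp2 first reached it at d16, as 3.55% of all 23983 genes did, and Acrv1, Zp3r and Spam1 at d24, as 6.3% did. Nearest to the threshold at d12 were Spaca1 at 2.03 just inside and Zpbp at 1.89 just outside. The counting interval of Acrbp at d12 (1.97 to 3.68) also spans the threshold. It was taken with the shortest transcript and would be narrower with a longer one. The class of these 3 genes is therefore uncertain.

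The 3 genes of the d24 class had d12 values of 0.0235% (Acrv1), 0.0626% (Spam1) and 0.0683% (Zp3r) of their adult values, from 1 fragment each. The 6 elongating spermatid markers had between 0.0196% and 0.0678% of their adult values in the same library. Spaca1 at d12 was at 0.836% of its adult value, Acrbp at 0.971%, Zpbp at 3.80%, Acr at 0.290% and Zpbp2 at 0.202%. Gopc at 60.7% and Hook1 at 11.1% were higher than all of these.

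Within each library the genes could be placed in order. In the adult the order was Zpbp2, Acrv1, Acrbp, Hook1, Spaca1, Acr, Spam1, Zp3r, Zpbp and Gopc, and the neighbours Acrbp and Hook1 and the neighbours Spam1 and Zp3r were not separated by their counting intervals. At d24 the order was Zpbp2, Acrbp, Spaca1, Acrv1, Hook1, Acr, Zpbp, Spam1, Zp3r and Gopc. Spaca1, Acrv1 and Hook1, between 104.3 and 106.3 FPKM, were not separated there, and neither were Spam1 and Zp3r. Acrv1 was second in the adult, separated from both neighbours, but its place at d24 beside Spaca1 and Hook1 was not settled. At d16 Hook1 led, followed by Zpbp2, and then by Acrbp and Gopc, which were not separated. At d12 Hook1 and Gopc led, Acrbp, Spaca1 and Zpbp followed, with no separation of Acrbp from Spaca1 or of Spaca1 from Zpbp, and the 5 lowest were at most 0.684 FPKM.

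Ratios within a library need no scaling between libraries. The pairs and sums below were chosen after the values had been seen, with genes that were higher after d24 set over genes that changed little, so they describe the size of that difference and do not support it. Acrv1 was 1.13 times Acr (1.07 to 1.19) at d24 and 2.59 times (2.44 to 2.76) in the adult. Spaca1 went from 0.480 times Acrbp (0.459 to 0.503) to 0.864 times (0.819 to 0.912), and Spam1 from 0.668 times Zpbp (0.626 to 0.712) to 1.21 times (1.13 to 1.31). Summed, Acrv1, Zp3r, Spam1 and Spaca1 were 0.386 times the sum of Acr, Acrbp, Zpbp and Zpbp2 at d12 and 0.0659 times at d16. This ratio was 0.417 at d24 and 0.850 in the adult, so it did not rise at every step. At d12 Spaca1 made up 2.03 of the 2.18 FPKM of the former sum. Spaca1 was likewise 0.744 times Acrbp at d12 and 0.219 times at d16. The change from d24 to the adult is a factor of 2.04.

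Over the whole table, genes of the d24 class were also higher in the adult than genes of the d16 class, relative to d24. The median ratio of adult to d24 was 1.15 (quartiles 0.920 and 1.46) over 848 genes of the d16 class and 2.23 (1.26 and 3.51) over 1510 genes of the d24 class. At least 2-fold was reached by 8.14% of the former and 55.1% of the latter. Acr, Zpbp and Zpbp2 at 1.19 to 1.28 and Acrv1, Zp3r and Spam1 at 2.099 to 2.94 lay within the quartiles of their classes. Class and ratio share the d24 library, so they are not independent measures. Over the same step the summed round spermatid markers rose by a factor of 3.10, the elongating spermatid markers by 11.0 and the pachytene markers by 1.16.

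**Figure D4:**
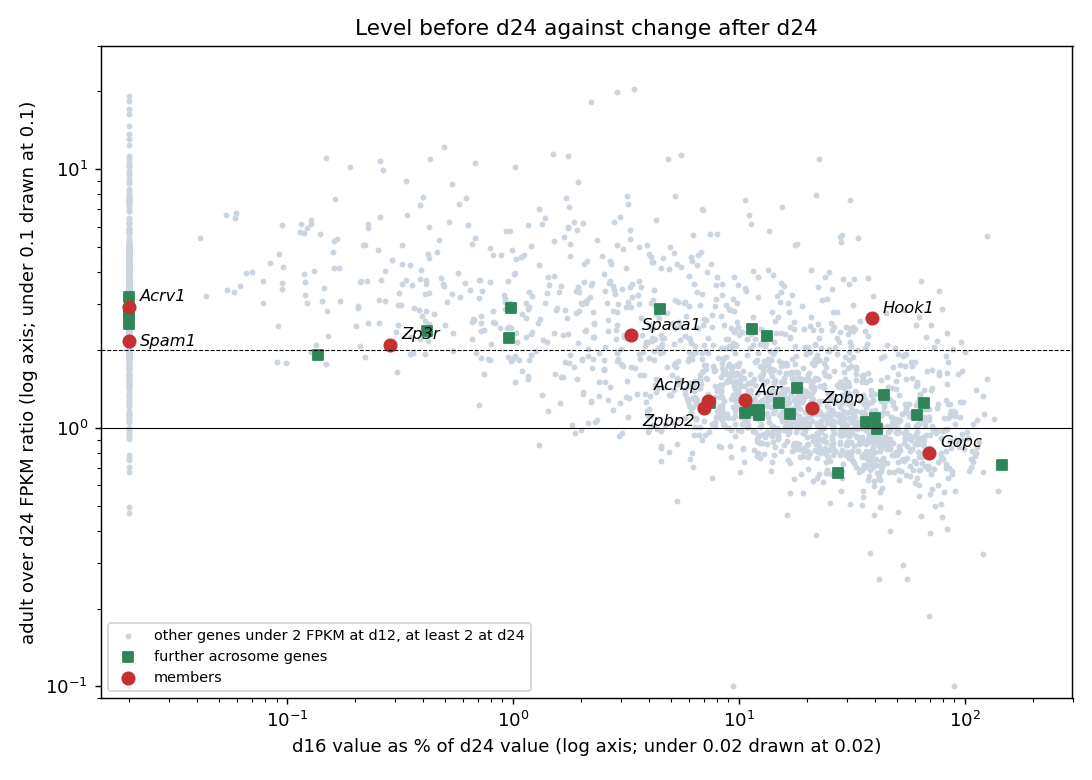
Ratio of adult to d24 FPKM (vertical, log axis) against the d16 value as a percentage of the d24 value (horizontal, log axis). Red points are the 10 acrosome genes, green squares the 28 further acrosome genes, and grey points 2258 other genes under 2 FPKM at d12 and at least 2 at d24. Acrv1 and Spam1, at 0% of d24, are drawn at the left edge and lie above the dashed line of 2-fold, while Acr, Acrbp, Zpbp and Zpbp2, at 7.02% to 21.0% of d24, lie between 1.19 and 1.28.

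A pair of further lists of 14 genes each, put together by role, was compared. They were written with earlier results of these data known and are no independent check. Of the genes for acrosome biogenesis, 6 rose at least 2-fold and 1 fell from d12 to d16, 11 rose and 0 fell from d16 to d24, and 1 rose and 0 fell from d24 to the adult. Of the genes for acrosome content and membrane, 5 were counted as rises and 2 as falls from d12 to d16, 14 rose and 0 fell from d16 to d24, and 10 rose and 0 fell from d24 to the adult. Over all genes the shares were 12.6% and 3.67%, 27.5% and 8.45%, and 11.4% and 2.2% at the 3 steps. Of the content list, 6 genes were listed at 0 at d12 and 5 at d16. Its counts from d12 to d16 include Spaca4, with 0 and 2 fragments, and Tmem190, with 1 and 0 fragments, for which no 2-fold change was measured. The median log2 change from d24 to the adult was 0.21 for the former list and 1.29 for the latter, against -0.02 over all genes. The 9 further genes of the d24 class, all from the content list, had adult to d24 ratios of 1.92 to 3.20, and the 9 of the d16 class of 0.668 to 1.42. The 10 of the d12 class ranged from 0.722 to 2.88, and 3 of them (Crisp2 at 2.26, Fam209 at 2.38 and Spaca6 at 2.88) were past 2-fold, as were Spaca1 and Hook1 of the same class among the 10 acrosome genes.

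The highest of these genes in the adult was Crisp2, a cysteine-rich secretory protein of the acrosome and tail, with 2.84, 150.0, 1122 and 2534 FPKM from d12 to the adult. Spink2, a serine protease inhibitor, had 0.682, 86.0, 778.3 and 914.3 FPKM, and Dkkl1, an acrosomal protein related to dickkopf, had 1.59, 70.8, 577.1 and 646.7 FPKM. All 3 exceeded the highest of the 10 genes at d16 (Hook1), at d24 (Zpbp2) and in the adult (Zpbp2). The highest at d12 were Tmf1, a golgin, with 34.9, 58.3, 132.2 and 177.8 FPKM, Vps54, a subunit of a complex that tethers vesicles to the Golgi, with 23.0, 25.4, 17.3 and 12.5 FPKM, and Smap2, a regulator of Arf GTPases, with 19.0, 23.4, 35.5 and 44.1 FPKM. These 3 were named for their d12 values, and 6 other genes of the biogenesis list were under 2 FPKM at d12.

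The 3 further genes counted as falls were so counted from d12 to d16 and had low values, and for 1 of them the fall is not a measured one. Fam209 went from 2.21 to 0.616 FPKM and Spaca6, needed for the fusion of sperm and egg, from 2.03 (28 fragments) to 0.581 (8 fragments). Tmem190 went from 0.136 FPKM (1 fragment) to 0, where the limit was 0.409, so no fold can be given and its count as a fall rests on the pseudocount. At d24 and in the adult the 3 genes were at 147.5 and 350.6 (Fam209), 13.0 and 37.4 (Spaca6) and 87.1 and 241.3 FPKM (Tmem190). Spaca1, which had nearly the same d12 value as Fam209 and Spaca6, was not lower at d16 than at d12.

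Besides Hyal5 of the content list, 7 paralogs of Hook1, Spam1 and Zp3r were followed in the same libraries. Hook2, an adaptor found at centrosomes, was at 3.02, 4.86, 39.5 and 51.1 FPKM, and Hook3, an adaptor for dynein transport, at 15.6, 12.2, 6.21 and 5.11 FPKM. Hook1 was 1.97 times Hook3 at d12 (1.85 to 2.09) and 54.2 times in the adult (49.8 to 58.9). Against Hook2 the ratio was 10.2 at d12, 2.64 (2.51 to 2.77) at d24 and 5.42 (5.09 to 5.78) in the adult. From d24 to the adult Hook1 thus rose relative to both.

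Spam1 lies in a cluster of hyaluronidase genes on chromosome 6, with Hyal4 at chr6:24748367-24766519 before it and Hyal5 at chr6:24857937-24891959 after it, all on the plus strand. Hyal6, at chr6:24733245-24745452 in the same cluster, was not followed here. Hyal5, a second sperm hyaluronidase of the content list, was at 0 at d12 and d16 (limit 0.116 at both), 16.8 at d24 and 53.8 in the adult. Spam1 was 1.66 times Hyal5 at d24 (1.52 to 1.82) and 1.12 times in the adult (1.03 to 1.23), so the 2 neighbours came closer. Hyal4 reached 1.24 FPKM in the adult, from 0, 0.0383 and 0.480 at the earlier stages. The hyaluronidases of chromosome 9 stayed low, with Hyal1 at 0.514, 0.809, 0.502 and 0.412 FPKM, Hyal2 at 2.16, 1.56, 1.28 and 0.485, and Hyal3 at 0.0436, 0.175, 0.249 and 0.490. C4bp, which encodes a complement regulator of the plasma and lies next to Zp3r at chr1:130635921-130661657, had at most 3 fragments in each library, and its adult value was 0.179 FPKM. None of the 50-base stretches of the 10 acrosome genes' transcripts was found in a curated transcript of another gene, so no read of that length matches 1 of the 10 genes and a paralog exactly.

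**Figure D5:**
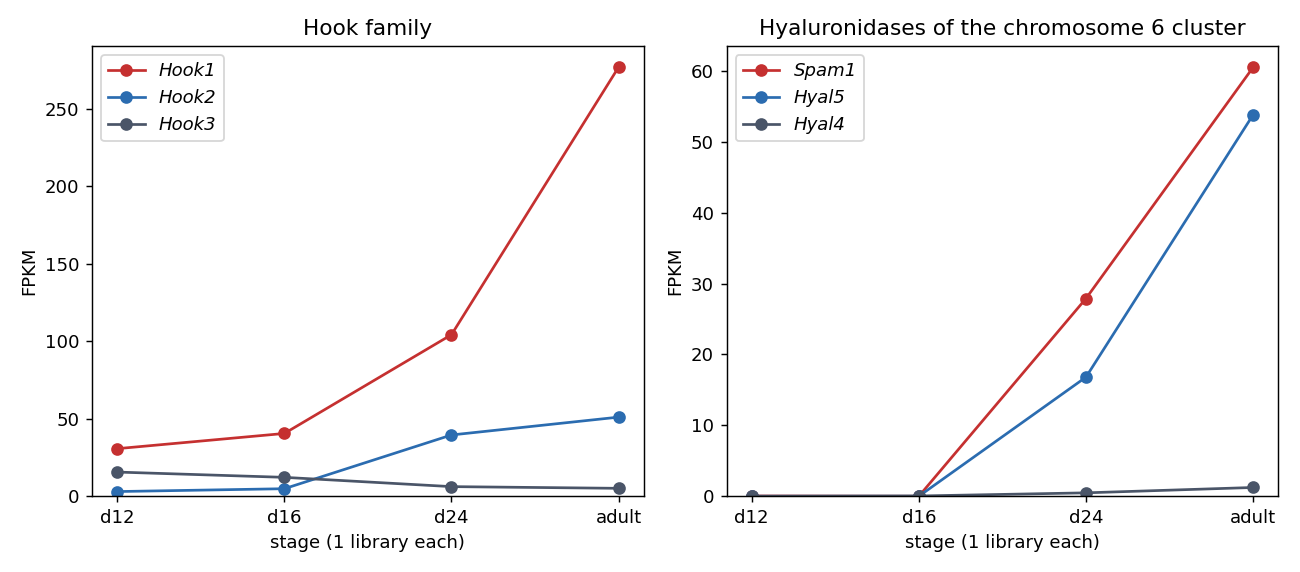
FPKM by stage of the Hook family (left) and of Spam1 with its neighbours Hyal5 and Hyal4 (right), on linear axes that start at 0, with 1 library per point. Hook1 ends at 276.9 and Hook3 at 5.11 FPKM, and Spam1 and Hyal5 end at 60.5 and 53.8 FPKM.

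The genes with the most alike patterns were found by the root mean square difference of log2(FPKM + 0.1), centred over the 4 libraries. For Acr these were Insl6 (0.0613), 1700003C15Rik (0.0622) and Gk2 (0.0668), and 40 genes were within 0.25 of it. For Acrv1 they were Allc (0.153), Tex33 (0.172) and Atp6v1e2 (0.172), with 5 genes within 0.25. For Hook1 they were 1700096K18Rik (0.0725), Akr1c13 (0.0785) and Herpud1 (0.0857), with 72 genes within 0.25. With 4 libraries such a likeness describes the size of the changes between stages and says nothing of shared function.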

How the data were processed

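RNA-seq of whole testis at 4 stages was analysed, with 1 library each. The H3K27Ac ChIP-seq samples are not analysed here. Libraries were strand-specific. Read pairs were aligned by the authors to GRCm38 (mm10) using TopHat2 2.1.0 on Bowtie 1.1.2 with 1 alignment kept per pair. The authors deposited FPKM per RefSeq gene from Cuffdiff (Cufflinks 2.2.1), run with its corrections for multi-reads and bias but not for effective length. The scaling between libraries is not given in the sources used here.

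Fragments behind an FPKM value were recovered from the steps between low values of 13304 genes with 1 curated transcript. Of values up to 20 fragments, 91.6% to 92.4% were whole within 0.05. On simulated data the unit was recovered within 1 percent in 4 of 4 libraries. Intervals are exact Poisson for levels and Clopper-Pearson for ratios. Folds across genes use a pseudocount of 0.1 FPKM and a mean of at least 1 FPKM. Scripts ran under Python 3.11.15 using scipy 1.17.1, pandas 2.3.3 and numpy 2.4.6.

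The 10 genes and all lists were chosen with earlier results of these data known. Of the further acrosome lists, the 3 highest in the adult, the 3 highest at d12 and those that fell past the fold are named. Alternatives were the scaling to the FPKM sum or the upper quartile, a pseudocount of 1, no filter, a 4-fold limit and thresholds of 1 and 5 FPKM. Scaling to the pachytene markers and the shortest transcript for intervals were chosen after seeing the data. Genes with the most alike pattern are given for Acr, Acrv1 and Hook1, and those for Gopc are not reported here.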

Additional observations from a re-analysis of the deposited data

How the results depend on the processing

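No paired analysis was possible because each stage has 1 library, and for the same reason no library could be left out. The number of the 10 genes that rose at least 2-fold from d24 to the adult was 5 as deposited, 1 with the same FPKM sum per library, 2 after division by the upper quartile, 2 after division by the pachytene markers and 0 at a 4-fold limit. The number highest in the adult was 9, and 5 with the same FPKM sum. Hook1 from d16 to d24 reversed from a log2 change of 1.36 to -0.73 relative to the pachytene markers. Gopc at the same step went from 0.52 to -1.56 under this scaling, and Zpbp from 2.24 to 0.16. Of the 134 alternative values, 24 concerned the counts (19 within 1.5 times the deposited count and 5 beyond) and 110 the changes of single genes, of which 7 had another sign and 16 lay on the other side of 2-fold. Over all genes, the share that fell from d16 to d24 was 8.45% as deposited, 30.7% with the same FPKM sum, 17.0% by the upper quartile and 73.5% by the pachytene markers, and the share that rose from d24 to the adult was 11.4%, against 6.73% with the same FPKM sum. The median of all genes from d24 to the adult lay between -0.49 and -0.02 on the log2 scale under the 4 scalings. Depth limits the values of Acrv1, Spam1 and Zp3r at d12 and d16, at 0 to 2 fragments.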
